A study of Mus musculus with 72 samples.

Results

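The nuclear basket is the fibrous cage on the inner face of the nuclear pore complex. Its 4 nucleoporin genes Nup153, Tpr, Nup50 and Zc3hc1 were taken by name, and all 4 were found among the 45321 mouse genes with counts. Each gene was represented by its most counted transcript. All 4 passed the filter on low counts, as did 18273 genes in all. Polyadenylated RNA came from mouse embryonic stem cells that had or lacked Nup133, a scaffold subunit of the Y-complex of the pore, and was profiled at 3 days of differentiation towards neuroectoderm. The 18 samples formed 6 groups of 3, 1 for each genotype and day, and each sample had been sequenced as 4 technical files, which were summed.

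The control samples were Nup133+/+ and XY: 2 biological replicates of the HM1 line and 1 of line 1A4, which was derived from a blastocyst and carried the Sox1gfp/+ reporter. The knockout samples came from lines 14 and 19, Nup133-/- derivatives of HM1 made with CRISPR/Cas9, and from line 319, a blastocyst-derived Nup133merm/merm line with Sox1gfp/+. Each knockout line gave 1 sample a day and stood for 1 line, so the spread between knockout samples was a spread between lines. Lines 1A4, 14 and HM1 were labelled with 40 chromosomes and line 19 as likely 40, whereas line 319 was XX with 42 chromosomes, carrying an extra chromosome 8 and an extra chromosome 12. No basket gene lies on either. All lines had been kept in serum with LIF on mouse fibroblast feeders, which were removed by a short plating before the day 0 cells were taken. The rest grew in N2B27 medium without LIF to day 2, and then for 1 more day with 1 µM all-trans retinoic acid to day 3.

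Nup153 anchors the basket to the pore and also binds lamins and chromatin. Tpr forms the filaments of the basket and tethers the TREX-2 mRNA export complex and the spindle checkpoint proteins Mad1 and Mad2. Nup50 is a mobile basket protein that binds importin alpha and helps release imported cargo, and Zc3hc1 (NIPA) binds Tpr at the basket and is also known as a substrate adaptor of a cyclin B1 ubiquitin ligase. In embryonic stem cells Nup133 is known to be needed for proper basket assembly at the pore. The comparison with the control lines asked whether basket transcripts changed too, and the days asked how they moved as pluripotency was left.

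The promoters of the 4 genes are shown because the transcripts moved in the same direction over differentiation. The sequences are from RefSeq (GRCm38.p6, 4 of 4 genes matched) and run 5′ to 3′ on the strand of the gene, from 250 bases before the start site to 50 bases from it onwards. Capitals mark matches to 7 searched motifs on either strand.
Nup153: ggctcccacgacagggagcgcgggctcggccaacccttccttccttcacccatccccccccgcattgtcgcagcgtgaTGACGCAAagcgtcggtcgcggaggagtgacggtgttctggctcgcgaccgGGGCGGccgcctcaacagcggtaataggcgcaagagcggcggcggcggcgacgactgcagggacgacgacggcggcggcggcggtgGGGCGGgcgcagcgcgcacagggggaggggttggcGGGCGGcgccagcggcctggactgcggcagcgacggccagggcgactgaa
Tpr: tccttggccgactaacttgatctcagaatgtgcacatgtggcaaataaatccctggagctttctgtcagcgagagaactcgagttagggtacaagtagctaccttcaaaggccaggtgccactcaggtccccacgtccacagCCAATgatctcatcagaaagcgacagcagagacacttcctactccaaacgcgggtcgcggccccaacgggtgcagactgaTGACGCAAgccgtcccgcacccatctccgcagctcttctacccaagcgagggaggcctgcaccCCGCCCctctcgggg
Nup50: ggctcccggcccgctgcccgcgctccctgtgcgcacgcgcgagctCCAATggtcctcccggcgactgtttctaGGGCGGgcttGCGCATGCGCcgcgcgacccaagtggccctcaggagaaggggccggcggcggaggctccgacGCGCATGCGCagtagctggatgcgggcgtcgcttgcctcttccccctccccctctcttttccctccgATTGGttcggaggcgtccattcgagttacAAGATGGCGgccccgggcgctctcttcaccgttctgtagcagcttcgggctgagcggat
Zc3hc1: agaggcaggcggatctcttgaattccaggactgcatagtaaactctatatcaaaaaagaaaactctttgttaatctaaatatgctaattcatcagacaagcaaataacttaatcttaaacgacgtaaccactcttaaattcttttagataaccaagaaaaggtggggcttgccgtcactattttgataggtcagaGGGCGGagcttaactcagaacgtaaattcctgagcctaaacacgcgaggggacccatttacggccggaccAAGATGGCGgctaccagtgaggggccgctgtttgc

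These windows lie at chr13:46727800-46728099 (minus strand) for Nup153, chr1:150392588-150392887 (plus strand) for Tpr, chr15:84923178-84923477 (plus strand) for Nup50 and chr6:30390971-30391270 (minus strand) for Zc3hc1. AAGATGGCG, a core of the motif bound by YY1, was found 9 bases before the start site of Nup50 and 15 bases after that of Zc3hc1, and in 1.4% of 32851 promoters of the same length. TGACGCAA, an ATF-like half-site that was chosen after the sequences had been read, was found in Nup153 and Tpr, 172 and 28 bases before the start, and in 0.49% of promoters. GCGCATGCG, a core of the NRF1 motif that overlaps its own reverse complement, was found at 2 places in Nup50 and in 1.75% of promoters. The GC box GGGCGG was found in all 4 promoters and in 35.7% of all promoters, and CCAAT in Tpr and Nup50 and in 37.4%. TGACGTCA and TATAAA were in none of the 4 windows, against 1.79% and 13.6% of all. The GC box may overlap other GC-rich matches, and none of the marked letters shows binding. The GC content of the windows was 74.0% for Nup153, 69.0% for Nup50, 58.0% for Tpr and 43.7% for Zc3hc1, beside a mean of 53.8% over all promoters.

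The libraries held 16466724 to 54386795 counts in genes. Nup133 itself lay between 179.5 and 323 counts per 1000000 counts (CPM) in the 9 control samples and between 14.3 and 37.1 CPM in the 9 knockout samples. The summed CPM of 8 stem cell markers lay between 4925 and 6997 at day 0 and between 330.1 and 989.3 at day 3. Those of 6 neural progenitor markers lay between 49.7 and 163.5 at day 0 and between 268.8 and 978.3 at day 3. Of 10 fibroblast markers, 7 or 8 averaged 1 CPM or more in every group, and their sum was 81.2 to 224.9 CPM across the 18 samples. For 9 mesendoderm markers the sum at day 0 was 56.7 to 111.7 CPM in the controls and 17.5 to 20.5 CPM in the knockout lines, and it was 13.8 to 47.4 CPM at the later days. In bulk RNA, fewer cells of a type and less RNA per cell cannot be told apart.

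The library of line 19 at day 2 stood apart. It had the fewest counts, 16466724, and its counts leaned towards the 3′ ends of Nup153, Tpr and Zc3hc1. Nup50 had a single counted transcript, so positions along it could not be compared. Transcript ENSMUST00000130779, which holds only the last part of Tpr, had 18.95% of the count of the full-length Tpr transcript there, and 4.20 to 5.42% in the 17 other samples. Near the 5′ end, ENSMUST00000131701, centred 1.6 kb into the 56.98 kb gene, had 0.45% there and 1.22 to 2.82% elsewhere. ENSMUST00000141827, centred 20.14 kb into Tpr, had 0.94% against 4.36 to 5.09%. In Nup153 the transcript ENSMUST00000183299, centred 13.57 kb into the 48.04 kb gene, had 6.38% against 13.47 to 17.04% elsewhere. For 9800 genes expressed at 10 CPM or more on average, a deviation was taken from the mean of the other samples of the same day. Its correlation with log2 length was -0.62 in this library and between -0.24 and 0.41 in the others. This is a description over genes, which are not replicates. The other day 2 libraries, at 0.245 to 0.41, were measured against a mean that included line 19. At days 0 and 3 the values were -0.24 to 0.207. In line 19 at day 2, genes under 1500 bases lay 1.02 above and genes over 5000 bases 0.88 below the mean of the other day 2 samples on the log2 scale (medians of 1.02 and -0.88). Nup153 (6109 bases) and Tpr (7430 bases) are long, Nup50 (4766 bases) is intermediate and Zc3hc1 (1865 bases) is short. The part of this library in each result was not tested beyond leaving it out.

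**Figure D1:**
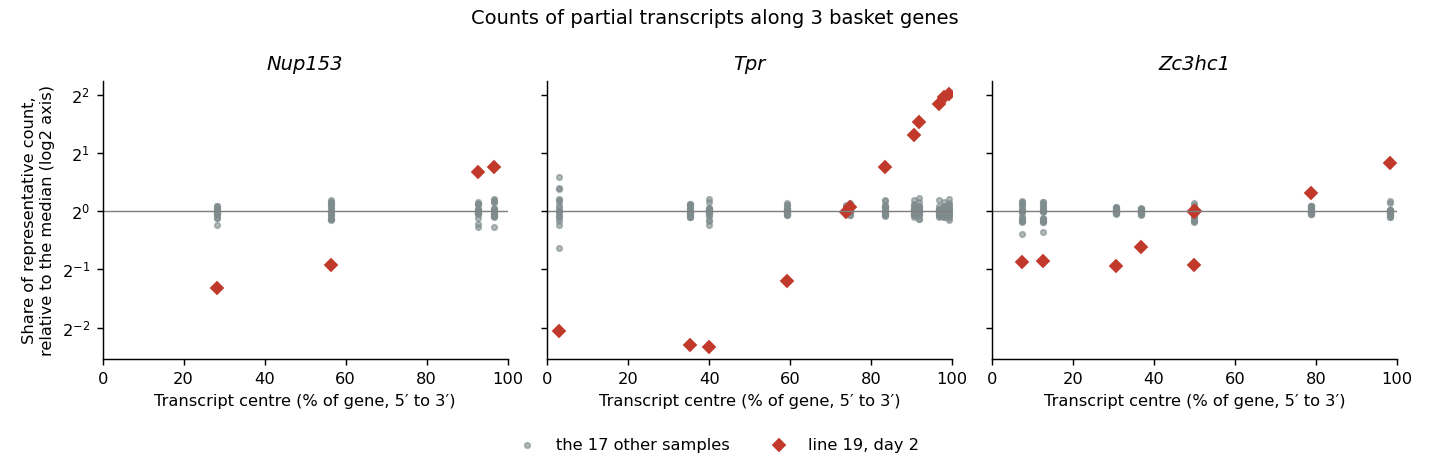
Counts of partial transcripts of Nup153, Tpr and Zc3hc1 as a share of the count of the gene's representative transcript, divided by the median share (log2 axis), against the centre of the transcript along the gene (% of the gene, 5′ to 3′). Grey points are the 17 other samples and red diamonds line 19 at day 2, which falls below the others in the 5′ parts of the genes and above them at the 3′ ends.

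Nup153 (ENSMUSG00000021374, GRCm38, chromosome 13, 46679905 to 46727940, minus strand, 22 exons) is the gene of the basket anchor. In control cells at day 0 it stood at 438, 412 and 426 CPM in HM1 replicate 1, HM1 replicate 2 and line 1A4. At day 2 the same 3 series gave 295, 303 and 306 CPM, and at day 3 they gave 210.0, 210.0 and 209 CPM. The controls were thus tightly grouped at each day and lower at each later day, with no overlap between days, a pattern that all 4 basket genes and 11.5% of all genes showed. In knockout lines 14, 19 and 319 the values were 426, 455 and 327 CPM at day 0. At day 2 they were 308, 97.0 and 365 CPM, and at day 3 they were 234, 275 and 205 CPM. Line 319 was lowest at day 0, line 19 was lowest at day 2 in the library that stands apart, and the genotypes overlapped at all 3 days.

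Tpr (ENSMUSG00000006005, chromosome 1, 150392838 to 150449815, plus strand, 52 exons) encodes the filaments of the basket. Control samples held 704, 655 and 768 CPM at day 0. They held 464, 501 and 449.7 CPM at day 2 and 345, 329 and 324 CPM at day 3. Every control series was lower at each later day. The knockout lines held 687, 744 and 701 CPM at day 0, within the control range. At day 2 they held 527, 371 and 642 CPM in lines 14, 19 and 319, and at day 3 they held 455, 544 and 432 CPM. At day 3 all 3 knockout lines lay above all 3 control samples, the lowest knockout at 432 CPM and the highest control at 345 CPM. Exons of Odr4 on the opposite strand share 176 bases (2.37%) with the Tpr transcript, and those of Prg4 share 84 bases (1.13%). The libraries were strand-specific, but the strand setting of the counting is not given in the sources used here.

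Nup50 (ENSMUSG00000016619, chromosome 15, 84923411 to 84942963, plus strand, 8 exons) encodes the importin-binding basket protein. It stood at 181, 181 and 195 CPM in the controls at day 0, at 158, 156 and 164 CPM at day 2 and at 127, 129 and 129.8 CPM at day 3. Here too each control day was lower than the one before, without overlap. The knockout lines gave 197, 199 and 182 CPM at day 0, 166, 195 and 162 CPM at day 2, and 157, 166 and 140.4 CPM at day 3. At day 3 the lowest knockout line, 319, was above the highest control, line 1A4.

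Zc3hc1 (ENSMUSG00000039130, chromosome 6, 30366388 to 30391028, minus strand, 11 exons) had the lowest counts of the 4. Control values were 92.3, 88.2 and 94.0 CPM at day 0, 78.5, 78.1 and 86.2 CPM at day 2, and 70.9, 68.5 and 71.6 CPM at day 3. The knockout lines gave 107, 95.6 and 91.8 CPM at day 0, 81.3, 109 and 66.6 CPM at day 2, and 71.7, 66.4 and 61.6 CPM at day 3. The genotypes overlapped at every day, and the highest knockout value, at day 2, was that of line 19.

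**Figure D2:**
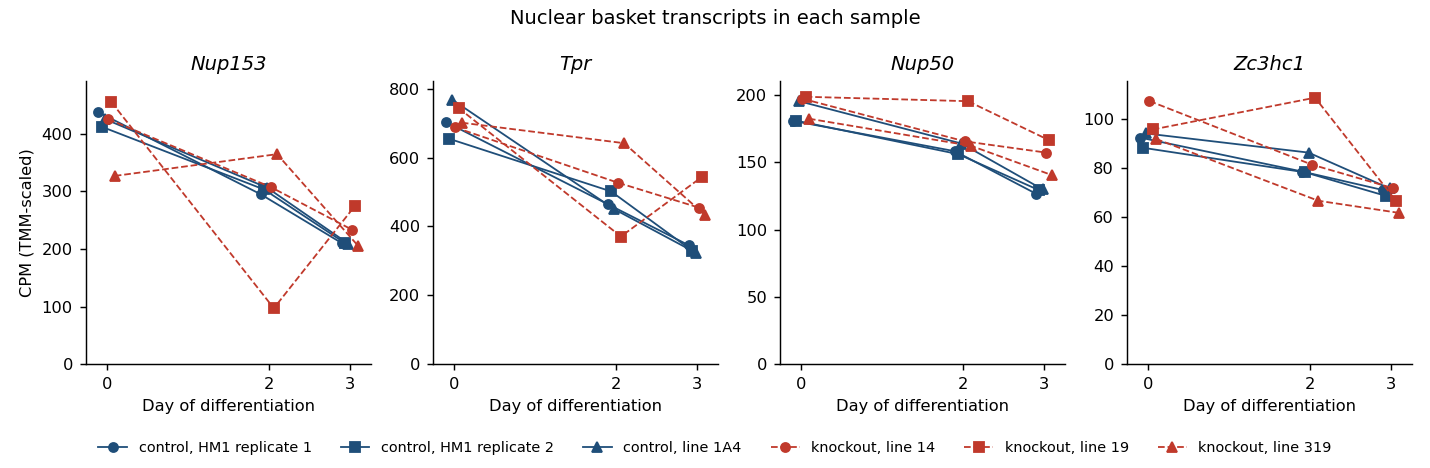
Expression of Nup153, Tpr, Nup50 and Zc3hc1 in CPM (TMM-scaled, axis from 0) at days 0, 2 and 3 in each of the 18 samples, with lines joining the samples of 1 cell line series (solid blue for the 3 control series, dashed red for the 3 knockout lines). Control series fall at each step, and at day 3 the 3 knockout lines lie above the 3 controls for Tpr (432 to 544 against 324 to 345 CPM) and Nup50 (140.4 to 166 against 127 to 129.8 CPM).

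Levels can be compared between genes only per length, as fragments per kilobase of the representative transcript and 1000000 counts (FPKM). In the controls at day 0 Tpr was highest at 95.4 ± 7.67 FPKM (SD, n = 3), followed by Nup153 at 69.6 ± 2.06, Zc3hc1 at 49.1 ± 1.61 and Nup50 at 39.0 ± 1.76 FPKM. By day 3 Tpr was at 44.7 ± 1.47 FPKM, Zc3hc1 at 37.7 ± 0.87, Nup153 at 34.3 ± 0.09 and Nup50 at 27.0 ± 0.36 FPKM, so Zc3hc1 and Nup153 had exchanged places. In the knockout lines at day 3 Tpr was at 64.2 ± 7.96 FPKM and the others were at 39.0 ± 5.74 (Nup153), 35.7 ± 2.71 (Zc3hc1) and 32.5 ± 2.77 FPKM (Nup50), whose SD ranges overlapped between neighbours. All 4 transcripts were abundant: their mean FPKM stood between percentiles 86.9 (Nup50) and 94.3 (Tpr) of tested genes.

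All 4 basket transcripts fell in the controls between day 0 and day 3. Tpr had 0.47 times its day 0 level at day 3 (log2 fold change -1.09 ± 0.17, SE; edgeR quasi-likelihood test with Benjamini-Hochberg adjustment over all genes, adjusted p = 6.47e-05). Nup153 had 0.493 times its day 0 level (-1.02 ± 0.31, edgeR adjusted p = 0.0127). Nup50 had 0.692 times (-0.53 ± 0.11, edgeR adjusted p = 0.00114) and Zc3hc1 0.768 times its day 0 level (-0.38 ± 0.15, edgeR adjusted p = 0.0423). Of all genes tested, 51% passed the same threshold and 23.3% passed it as lower, so a fall is common in this comparison. This contrast and its knockout counterpart were chosen after the data had been seen. Without control replicate 1, 2 or 3 in turn, 2 of the 4 passed (Tpr and Nup50 each time), and without line 14 Zc3hc1 did not pass. Zc3hc1 also did not pass without a filter on low counts or with the longest transcript of each gene, and with HM1-derived samples alone neither it nor Nup153 did. For Zc3hc1 the longest transcript is a retained-intron entry of 2 exons and 2908 bases. It held 17.36% of the count of the representative transcript, so that alternative does not compare full-length forms of this gene.

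In the knockout lines all 4 had a negative log2 fold change from day 0 to day 3. Of these, 3 passed the test, beside 50.6% of all genes that passed and 22.2% that passed as lower. Tpr reached 0.671 times its day 0 level (log2 fold change -0.57 ± 0.17, edgeR adjusted p = 0.00859). Nup50 reached 0.802 times (-0.32 ± 0.11, edgeR adjusted p = 0.0282) and Zc3hc1 0.678 times its day 0 level (-0.56 ± 0.15, edgeR adjusted p = 0.00505). Nup153 had a log2 fold change of -0.76 ± 0.31 that did not pass (edgeR adjusted p = 0.0529). With line 19 at day 2 left out all 4 passed, as did 60.4% of all genes, and Nup153 had -0.75 ± 0.12 (edgeR adjusted p = 6.41e-05). Without line 14 only Zc3hc1 passed, without line 319 or without control replicate 1 or 2 Tpr and Zc3hc1 did, and without line 19 at all 3 days all 4 did. Nup50 did not pass without a filter on low counts or with HM1-derived samples alone, and Nup153 passed by DESeq2 and with no background term.

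The series of single lines show the same falls. From day 0 to day 3 Tpr fell by 1.03, 0.99 and 1.25 on the log2 scale in the controls (changes of -1.03, -0.99 and -1.25) and changed by -0.60, -0.45 and -0.70 in lines 14, 19 and 319. Nup50 changed by -0.51, -0.48 and -0.59 in the controls and by -0.33, -0.25 and -0.38 in the knockout lines, and Nup153 by -1.06, -0.97 and -1.02 against -0.86, -0.73 and -0.67. For these 3 genes every knockout line fell less than every control series, an order found for 12.4% of all genes. Zc3hc1 stood the other way round, with -0.38, -0.36 and -0.39 in the controls and -0.58, -0.52 and -0.57 in the knockout lines, an order found for 10.9% of all genes.

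The difference between the genotypes in this change did not pass the test for any of the 4 genes, beside 0.427% of all genes (contrast chosen after the data had been seen). Tpr had the largest, 0.52 ± 0.23 on the log2 scale (95% interval 0.02 to 1.01), with an unadjusted p of 0.0417 and an edgeR adjusted p of 0.431. It was the only 1 of the 4 with an unadjusted p under 0.05, beside 10.9% of all genes, and DESeq2 called none, beside 2.45%. Nup153 had 0.26 ± 0.44, Nup50 0.21 ± 0.16 and Zc3hc1 -0.18 ± 0.21. The value for Tpr was 0.51 ± 0.15 without line 19 at day 2 (edgeR adjusted p = 0.0997; 1.42% of all genes passed), and over the 14 alternatives run its adjusted p lay between 0.0997 and 0.937.

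Between neighbouring days, Tpr alone of the 4 passed the test in the fit of all 18 samples. In the controls it fell from day 0 to day 2 (log2 fold change -0.58 ± 0.17, edgeR adjusted p = 0.012; 35.2% of all genes passed) and from day 2 to day 3 (-0.50 ± 0.17, edgeR adjusted p = 0.0388; 21.4% of all genes). It also fell in the knockout lines from day 0 to day 2 (-0.47 ± 0.17, edgeR adjusted p = 0.0347; 35.9% of all genes), a call that was lost without line 19 at day 2 (-0.26 ± 0.12, edgeR adjusted p = 0.0965). In the single lines the step was -0.38 in line 14 and -0.13 in line 319, and it was largest in line 19. From day 2 to day 3 none of the 4 passed in the knockout lines, where 33.6% of all genes did. Zc3hc1 was the only 1 with an unadjusted p under 0.05 (p = 0.0296, log2 fold change -0.35 ± 0.15), beside 45% of all genes, and DESeq2 called it too, beside 39.4% of all genes. Zc3hc1 had -0.17 ± 0.11 without line 19 at day 2 (edgeR adjusted p = 0.246).

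These steps depended on which samples were used. With the cell line series as a replicate block, the fall of Tpr in the controls from day 2 to day 3 and in the knockout lines from day 0 to day 2 no longer passed (edgeR adjusted p = 0.0663 and 0.0581). Leaving out control replicate 1, 2 or 3 ended all 3 calls of Tpr, leaving out line 14 ended those in the controls from day 2 to day 3 and in the knockout lines, and leaving out line 19 ended that in the knockout lines. In the fit without line 19 at day 2, Nup153 and Tpr fell in the controls from day 0 to day 2 (-0.48 ± 0.12 and -0.57 ± 0.11, edgeR adjusted p = 0.00399 and 0.000577). From day 2 to day 3 Nup153, Tpr and Nup50 then fell in the controls (-0.53 ± 0.12, -0.51 ± 0.11 and -0.32 ± 0.08). In the knockout lines Zc3hc1 then fell from day 0 to day 2 (-0.38 ± 0.11, edgeR adjusted p = 0.0117) and Nup153 from day 2 to day 3 (-0.53 ± 0.13, edgeR adjusted p = 0.00669). The share of all genes that passed without that library was 46.1% and 32.4% for the control steps and 38.8% and 32% for the knockout steps.

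At day 0 no basket transcript differed between the genotypes by the test. The log2 fold change of knockout over control was -0.08 ± 0.31 for Nup153, 0.01 ± 0.16 for Tpr, 0.05 ± 0.11 for Nup50 and 0.10 ± 0.15 for Zc3hc1, with edgeR adjusted p from 0.934 to 1.0. In this comparison 0.854% of all genes passed, and 0 of the 4 passed by DESeq2 (3.08% of all genes) or at an unadjusted p under 0.05 (10.6%). The 95% intervals ran from -0.34 to 0.35 for Tpr, from -0.19 to 0.29 for Nup50, from -0.21 to 0.41 for Zc3hc1 and from -0.73 to 0.58 for Nup153. Changes within those bounds were not excluded.

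At day 2 the test again called 0 of the 4, beside 1.6% of all genes. An unadjusted p under 0.05 (20.4% of all genes) and DESeq2 (7.66%) gave 0 as well. Nup153 had -0.24 ± 0.31, Tpr 0.12 ± 0.17, Nup50 0.13 ± 0.11 and Zc3hc1 0.07 ± 0.15. The values for single lines were far apart: against the control of its own background, Nup153 was at 0.04 in line 14, -1.62 in line 19 and 0.25 in line 319. Leaving out line 19 at day 2 turned the sign for Nup153 (0.17 ± 0.13) and Zc3hc1 (-0.13 ± 0.11) and moved Nup50 to 0.04 ± 0.09. Tpr was then at 0.31 ± 0.12 with an unadjusted p of 0.0213 and an edgeR adjusted p of 0.2, while 2.01% of all genes passed.

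At day 3, after retinoic acid, Tpr was 1.44-fold and Nup50 1.2-fold as high in the knockout lines as in the controls, with no overlap between the groups, but neither passed the test over all 18 samples. Tpr had a log2 fold change of 0.52 ± 0.17 (95% interval 0.17 to 0.87, unadjusted p = 0.00615, edgeR adjusted p = 0.0764). Nup50 had 0.27 ± 0.11 (0.02 to 0.51, unadjusted p = 0.033, edgeR adjusted p = 0.182). Nup153 had 0.18 ± 0.31 and Zc3hc1 -0.08 ± 0.15, with edgeR adjusted p of 0.782 and 0.8. So edgeR called 0 of the 4, beside 5.2% of all genes, with 2 at an unadjusted p under 0.05, beside 21.9% of all genes. DESeq2 called 1, Tpr, beside 11.3% of all genes. Groups without overlap and higher in the knockout were found for 17.6% of all genes at day 3, so 2 of 4 is to be read against that share.

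Both genes passed without line 19 at day 2. Tpr then had 0.51 ± 0.11 (edgeR adjusted p = 0.00745) and Nup50 0.26 ± 0.08 (edgeR adjusted p = 0.0421), while 15.9% of all genes passed. The fold changes at day 3 hardly moved, since no day 3 sample was removed, and the standard errors were smaller. Over the 15 alternatives run, Tpr lay between 0.40 and 0.59 and passed in 5, with edgeR, DESeq2 or limma adjusted p from 0.00745 to 0.316. The 5 were the fit without that library, the fit of day 3 alone, the DESeq2 test, and the fits without line 19 (0.40) or without line 319 (0.59). Nup50 lay between 0.21 and 0.35 and passed in 1.

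The 3 knockout lines agreed in sign at day 3 for Tpr and Nup50. Against the control of the same background, Tpr was higher by 0.43 in line 14, 0.69 in line 19 and 0.42 in line 319 on the log2 scale. Nup50 was higher by 0.30, 0.38 and 0.11. Nup153 was at 0.15, 0.39 and -0.03 in the same order, and Zc3hc1 at 0.04, -0.07 and -0.21. Line 19 had the highest value for Tpr, Nup50 and Nup153 and line 319 the lowest of the 3 lines. Line 319 differs from the others in background, sex chromosomes and chromosome number together, which cannot be told apart. At this day the stem cell marker sum was 330.1 to 989.3 CPM in the knockout lines and 653.1 to 756.3 CPM in the controls, and the neural marker sum 268.8 to 978.3 against 321.5 to 386.6 CPM, and the part of such differences in the basket values was not tested.

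**Figure D3:**
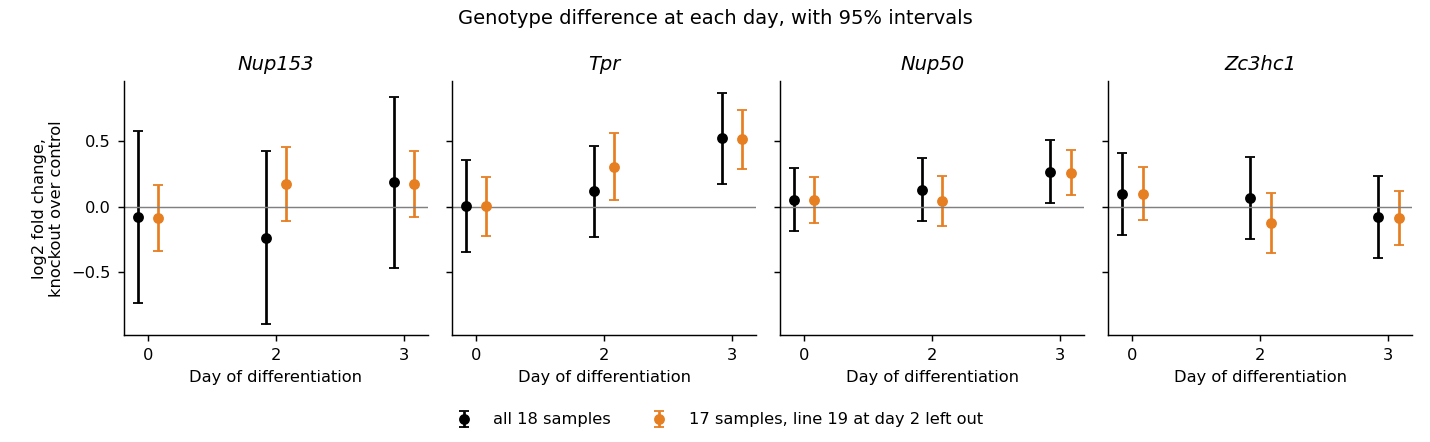
Log2 fold change of knockout over control for Nup153, Tpr, Nup50 and Zc3hc1 at days 0, 2 and 3, with 95% intervals, from the fit of all 18 samples (black) and of the 17 samples without line 19 at day 2 (orange). Tpr is at 0.01, 0.12 and 0.52 over the 3 days in the first fit, and the intervals at day 3 for Tpr and Nup50 exclude 0 in both fits.

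The genotype difference changed between neighbouring days for none of the 4 genes by the test, with 0 at an unadjusted p under 0.05 and 0 by DESeq2, which called 0.383% of all genes for day 0 to day 2 and 0.662% for day 2 to day 3. The difference for Tpr shifted by 0.11 ± 0.23 from day 0 to day 2 (edgeR adjusted p = 0.924), where 0.0219% of all genes passed. From day 2 to day 3 its shift was 0.41 ± 0.23 (edgeR adjusted p = 0.587), with 0.0383% of all genes. Without line 19 at day 2 the order of the steps was the other way round, with 0.30 ± 0.16 to day 2 (edgeR adjusted p = 0.677; 0.0211% of all genes) and 0.21 ± 0.16 to day 3 (edgeR adjusted p = 0.858; 0.0317%). The background of the lines, blastocyst-derived against HM1-derived, moved no basket gene past the test (0 of 4, 0 at an unadjusted p under 0.05, 0 by DESeq2, beside 4.15% of all genes by edgeR and 9.77% by DESeq2). The differences were 0.04 ± 0.19 for Nup153, 0.05 ± 0.10 for Tpr, -0.04 ± 0.07 for Nup50 and -0.09 ± 0.09 for Zc3hc1, and without line 19 at day 2 they lay between -0.089 (Nup153) and -0.001 (Tpr).

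Proteins that work at the basket were followed in a list of 27 genes, all tested. It held TREX-2 subunits, Mad1l1 and Mad2l1, the SUMO proteases Senp1 and Senp2, importins with Ran and Rcc1, the lamins, the export receptor Nxf1 with Nxt1, and partners of Zc3hc1 in the cyclin B1 ligase. In the controls from day 0 to day 3, 14 of the 27 passed as lower and 0 as higher, beside 23.3% of all genes that passed as lower. The median log2 fold change was -0.53 beside 0.04 over all genes. The lamin gene Lmna had -2.12 ± 0.27, Mcm3ap, the TREX-2 scaffold that Tpr tethers, -1.15 ± 0.19, Skp1a -0.97 ± 0.16 and Rcc1, the nucleotide exchange factor of Ran, -0.88 ± 0.15. In the knockout lines 14 of the 27 also passed as lower and 0 as higher, beside 22.2% of all genes that passed as lower. The median was -0.44 beside 0.01, and the falls were led by Lmna (-1.54 ± 0.26), Ccnb1 (-0.93 ± 0.15) and Kpna1 (-0.82 ± 0.26). The counts that passed as lower were 19 and 17 without line 19 at day 2, beside 28.2% and 27.9% of all genes.

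Between the genotypes, edgeR called 0 of the 27 at day 0, day 2 and day 3, beside 0.854%, 1.6% and 5.2% of all genes. At an unadjusted p under 0.05 there were 0, 4 and 3, beside 10.6%, 20.4% and 21.9% of all genes. DESeq2 called 0, then 2 (Eny2 and Sem1) and then 1 (Cul1), beside 3.08%, 7.66% and 11.3%, so these counts were near or below the shares over all genes. At day 3 the log2 fold changes had a median of 0.20 beside 0.02 over all genes and 20 of the 27 above 0. With line 19 at day 2 left out, 4 passed at day 3, beside 15.9% of all genes, 1 at day 0 and 0 at day 2, beside 2.01% at each of those days. The importin Kpna4 was the 1 at day 0 (0.46 ± 0.10, edgeR adjusted p = 0.031), and it had a difference of like size at day 3. At day 3 Kpna4 (0.48 ± 0.10), the TREX-2 subunit Eny2 (0.47 ± 0.13) and the cullin Cul1 (0.33 ± 0.09) were higher in the knockout lines. The TREX-2 subunit Pcid2, on chromosome 8, was lower (-0.40 ± 0.12). The median was then 0.19.

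The rest of the pore was followed in 28 further nucleoporin genes. In the controls from day 0 to day 3, 20 of the 28 passed as lower and 1 (Nup210) as higher, beside 23.3% of all genes that passed as lower. The median log2 fold change was -0.66, beside 0.04 over all genes. Nup98, of the phenylalanine-glycine repeat family, had -0.95 ± 0.35, Ranbp2 of the cytoplasmic filaments -0.93 ± 0.31 and Ahctf1, which seeds pore assembly on chromatin, -0.89 ± 0.21. The knockout lines had 15 that passed as lower and 2 as higher (Nup210l and Pom121), beside 22.2% of all genes that passed as lower. Their median was -0.54, beside 0.01 over all genes. The counts that passed as lower without line 19 at day 2 were 22 in the controls and 21 in the knockout lines, beside 28.2% and 27.9% of all genes. The 4 basket genes, at -1.09 to -0.38 in the controls, therefore moved in the direction of most other nucleoporins, and no test of a difference between them was made.

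At day 3, 1 nucleoporin passed as higher and 1 as lower in the knockout lines, beside 5.2% of all genes that passed. The median was 0.06 over the 28 and 0.02 over all genes. Nup210l, a relative of the transmembrane nucleoporin Nup210, was higher by 3.57 ± 0.32 (edgeR adjusted p = 5.23e-05), at 8.23 ± 1.55 CPM against 0.69 ± 0.12 CPM (SD, n = 3 each). Nup88, of the cytoplasmic side, was lower (-0.50 ± 0.12, edgeR adjusted p = 0.0248), at 153 ± 17.1 CPM against 216 ± 14.8 CPM. Leaving out line 19 at day 2, 5 passed as higher and 2 as lower, beside 15.9% of all genes that passed. Tmem33 (0.67 ± 0.16) and Ranbp2 (0.50 ± 0.13) were among those that passed as higher. Tpr, at 0.51 in that fit, was of the size of Ranbp2.

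**Figure D4:**
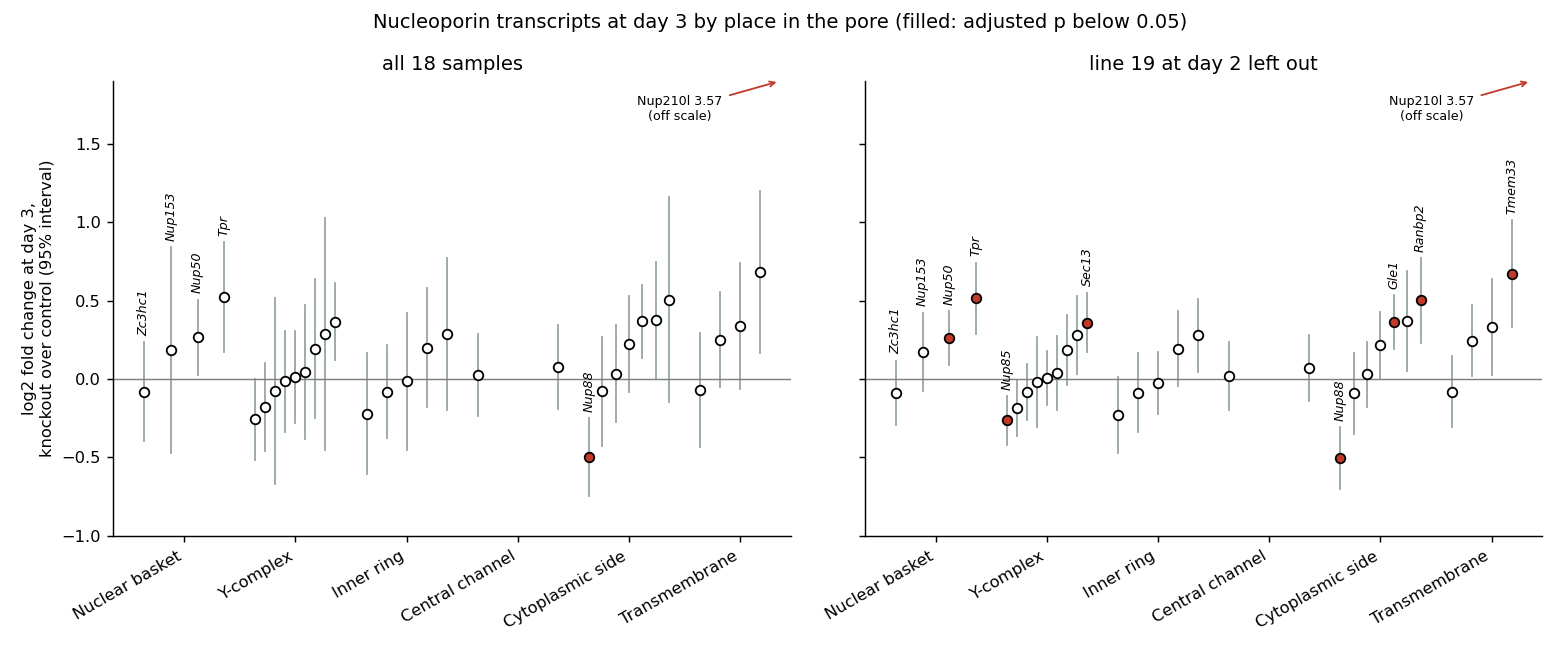
Log2 fold change of knockout over control at day 3 with 95% intervals for the 4 basket genes and 28 other nucleoporin genes, by place in the pore, from all 18 samples (left) and without line 19 at day 2 (right); filled points have an adjusted p below 0.05 and Nup210l (3.57) lies above the axis. Tpr and Nup50 are open on the left and filled on the right.

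The basket genes were correlated with each other over the samples, which share lines and days, so the values are descriptions. Over 18 samples Pearson's r on the log2 CPM scale was 0.83 for Nup153 with Tpr, 0.79 for Tpr with Nup50 and 0.82 for Nup50 with Zc3hc1. It was 0.47 for Tpr with Zc3hc1, 0.43 for Nup153 with Nup50 and 0.22 for Nup153 with Zc3hc1. Without line 19 at day 2 these last 3 pairs were at 0.69, 0.92 and 0.80, and Tpr with Nup50 reached 0.95. The low values of Nup153 with Nup50 and Zc3hc1 were thus seen only with that library included.

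The genes whose profile was most like each member were found by Pearson's r over the 18 samples, among genes expressed at 10 CPM or more on average. For Nup153 they were Dcaf1 (0.98), Larp4 (0.98) and Kif5b (0.98), with transcripts of 5539, 6530 and 6032 bases. For Tpr they were Syncrip (0.98), Dido1 (0.97) and Nol8 (0.97). For Nup50 they were Ppp1r8 (0.97), Med18 (0.96) and Nolc1 (0.96), and for Zc3hc1 Dcaf11 (0.96), Qdpr (0.95) and Wdr18 (0.95). Without line 19 at day 2, 0 of the 3 stayed among the top 3 for Nup153 and for Tpr, and 1 of 3 for Nup50 (Ppp1r8) and for Zc3hc1 (Dcaf11). The samples share days and transcript length moved with the library that stands apart, so likeness here does not speak of shared control.

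The variability of the 4 genes differed. Over the 18 samples the SD of log2 CPM was 0.56 for Nup153, 0.42 for Tpr, 0.24 for Zc3hc1 and 0.21 for Nup50. These stood at percentiles 73.4, 52.8, 12.4 and 7.5 of 9800 genes. Without line 19 at day 2 Nup153 (0.41) and Tpr (0.41) were level, at percentiles 61.8 and 62.4, and Nup50 (0.21) and Zc3hc1 (0.23) were at percentiles 16.1 and 20.1.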

How the data were processed

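Per the submitters' processing notes, the authors used bcl2fastq 2.17.1.14, STAR 2.4.0k, SAMtools and HTSeq with the mm10 genome. The deposited files hold raw read counts per Ensembl transcript, and how reads shared by transcripts were counted is not given in the sources used here. The 4 technical files of a sample differed by no more than sampling noise (chi-square per degree of freedom 1.01 to 1.03) and were summed. Transcripts were matched to genes in GENCODE annotation (108214 of 110379 matched, and 1.44 to 2.46% of counts were unmatched and left out). The transcript with the highest total stood for its gene. Genes were filtered with filterByExpr, scaled by TMM and tested in 1 edgeR 4.0.16 quasi-likelihood fit (R 4.3.3) of 6 groups and a background term, with 11 residual degrees of freedom and Benjamini-Hochberg adjustment over 18273 genes. Calls were made at an adjusted p under 0.05. CPM and FPKM were computed here. Correlations and values per line used log2(CPM + 0.5).

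Alternatives were DESeq2 1.42.0, its size factors, no filter, no background term, the longest transcript (for Zc3hc1 a retained-intron entry) and day by day fits. Others were HM1-derived samples, samples left out, a pseudocount of 2 and a replicate block. For knockout against control at each day, the block used limma 3.58.1 with a correlation within series. That correlation was estimated at 0.00947, so in these comparisons the block had little weight. For comparisons between days it used edgeR with series terms. The fit was tested on simulated counts. Within a genotype, samples with the same replicate number came from the same line at the 3 days and were taken as a series. For HM1 the series were read from the replicate numbers in the labels, which do not state a shared culture. Of 18 correlations between the deviations of samples of the same series, 15 were above 0.1. This pairing of days entered only the replicate block, and the main fit of all 18 samples held no term for it. HM1 replicates are 2 samples of 1 line, and p-values measure the spread between these samples. Members and lists were chosen with earlier results of these data known. Named genes were the 4 members, the 3 genes most like each (not on chromosomes 8, 12, X, Y or M), called genes of the lists (at most 4 a list and comparison, by size) and Nup133. Nup58 was not analysed here.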

Additional observations from a re-analysis of the deposited data

Results flagged for a closer look

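In the library of line 19 at day 2, 9 partial transcripts of the basket genes, which are not the transcripts that represent the genes in the fits, held more than 1.5 times the highest share seen in the control samples. Shares are percentages of the count of the representative transcript. In Tpr they were 67.2% (ENSMUST00000152967), 55.07% (ENSMUST00000128417), 36.53% (ENSMUST00000124484), 26.23% (ENSMUST00000138718), 24.64% (ENSMUST00000132257) and 18.95% (ENSMUST00000130779). In Nup153 they were 15.09% (ENSMUST00000182914) and 14.23% (ENSMUST00000182156), and in Zc3hc1 39.86% (ENSMUST00000202393). All 9 lie in the 3′ parts of their genes. The shares of 27 transcripts were compared between genotypes at each of 3 days by an exact permutation test, two-sided, with 3 samples against 3, which cannot go below p = 0.10, so none could pass. The cause was not tested.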

How the results depend on the processing

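Counts are of the 4 basket genes that passed, with all 18 samples first. In those with the longest transcript, a retained-intron entry stood for Zc3hc1. Knockout against control at day 3 (0) gave 1 by DESeq2, 1 with the day fitted alone and 2 without line 19 at day 2. In the controls, day 0 to 2 (1) gave 0 with HM1-derived samples and 2 without line 19 at day 2, and day 2 to 3 (1) gave 2 by DESeq2, 3 without line 19 at day 2, and 0 without a filter, with HM1-derived samples or with the replicate block. In the knockout lines, day 0 to 2 (1) gave 0 without a filter or with the replicate block and 2 with HM1-derived samples or the longest transcript, and without line 19 at day 2 Zc3hc1 passed in place of Tpr. Their day 2 to 3 (0) gave 1 by DESeq2 and 1 without line 19 at day 2. Day 0 to 3 gave, in the controls (4), 2 with HM1-derived samples and 3 without a filter or with the longest transcript. In the knockout lines (3) it gave 2 without a filter or with HM1-derived samples and 4 by DESeq2, with no background term or without line 19 at day 2. Leaving out each replicate in turn gave 0 to 1 for the genotypes at day 3, 0 to 3 for both control steps, 0 to 2 for both knockout steps, and 2 to 4 (controls) and 1 to 4 (knockout) from day 0 to 3. The replicate block changed no other call of the 4 genes. Of the 3 genes most like a member, 0 (Nup153), 0 (Tpr), 1 (Nup50) and 1 (Zc3hc1) stayed without line 19 at day 2.

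Signs of log2 values turned as follows, none of them for a value that had passed with all 18 samples. For knockout over control, Tpr at day 0 was -0.003 without a filter, and with HM1-derived samples Nup153 at day 0 was 0.062 and Tpr at day 2 was -0.106. Without line 19 at day 2, Nup153 was 0.173 and Zc3hc1 -0.126 at day 2, and with the longest transcript, a retained-intron entry, Zc3hc1 was -0.286. For the shift of that difference from day 0 to 2, Tpr was -0.193 and Zc3hc1 0.096 with HM1-derived samples, and Nup153 0.26 and Nup50 -0.009 without line 19 at day 2. From day 2 to 3, Nup153 was -0.0 and Zc3hc1 0.04 without line 19 at day 2, and Zc3hc1 0.1 with the longest transcript. In the knockout lines from day 2 to 3, Nup153 was 0.325 and Tpr 0.15 with HM1-derived samples. The background term was -0.089 for Nup153 and -0.001 for Tpr without line 19 at day 2. Leaving out each replicate, knockout over control ran from -0.04 to 0.033 (Tpr) and -0.173 to 0.056 (Nup153) at day 0, from -0.57 to 0.164 (Nup153), -0.07 to 0.298 (Tpr) and -0.125 to 0.255 (Zc3hc1) at day 2, and from -0.125 to 0.022 (Zc3hc1) at day 3. Its shift ran from -0.627 to 0.337 (Nup153), -0.089 to 0.333 (Tpr) and -0.253 to 0.077 (Zc3hc1) to day 2, and from -0.097 to 0.852 (Nup153) and -0.254 to 0.05 (Zc3hc1) to day 3. The knockout step from day 2 to 3 ran from -0.627 to 0.327 (Nup153) and -0.406 to 0.153 (Tpr). The background term ran from -0.042 to 0.124 (Nup153), -0.162 to 0.065 (Nup50) and -0.272 to 0.079 (Zc3hc1). The causes were not tested.

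Each basket gene had at least 61.6 CPM in every library, and groups of 3 samples limit the precision. Basket proteins were not measured.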
